A study of Mus musculus with 36 samples.

Results

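The levels of 10 transcription factor genes that mark mesenchymal cells were followed in mouse pancreatic fibroblasts grown alone or with tumour cells: Twist1, Twist2, Snai1, Snai2, Zeb1, Zeb2, Prrx1, Prrx2, Tcf21 and Osr1. They were taken by symbol from the 39017 genes of the count table, as a list drawn up with earlier results of these data known, and each of the 10 symbols had a row there. The fibroblasts were of the C57BL/6 strain and gave 36 libraries in 9 groups of 4: mono-culture, co-culture with each of 7 tumour sub-clones (named with the letters E, H, K, M, N, T and V), and co-culture with KPC1, a tumour line that the labels do not describe further. The titles of the mono-culture libraries carry the letters PSC in the place of a line name. Co-cultures lasted 48 h, after which the tumour cells, which carried GFP, were removed by flow sorting. Each co-culture stands for a single line, and the labels say neither whether mono-culture cells were sorted in the same way nor whether the 4 replicates came from separate cultures or animals, so p-values measure the spread between these libraries.

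The Snail (Snai1, Snai2), Zeb and Twist families are best known for holding cells in a mesenchymal state. Snail and Zeb proteins are zinc-finger repressors of epithelial genes such as E-cadherin, and they recognise short DNA words called E-boxes. Twist1, Twist2 and Tcf21 are basic helix-loop-helix proteins that bind E-boxes as dimers with E proteins such as Tcf3, Tcf4 and Tcf12, while Id proteins occupy the same partners and keep them from DNA. Prrx1 and Prrx2 are paired-type homeodomain proteins of embryonic and adult mesenchyme, and Osr1 is a zinc-finger protein of intermediate and lateral mesoderm that also marks fibroblast progenitors.

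Library totals lay between 12532122 and 21985538 counts. The 24 fibroblast markers summed to between 20360 and 48081 CPM (TMM-scaled counts relative to the library total) per library, and none of the 24 was at 0 throughout a group. Leukocyte and endothelial markers summed to at most 33.5 and 14.5 CPM in any library. Epithelial markers moved with co-culture: the 22 markers summed to 7.76 to 9.60 CPM in mono-culture. There, 4 of the markers were at 0 in all 4 libraries, and the keratin gene Krt8 was at 0 in 3 of the 4 libraries. In co-culture the 22 markers summed to between 24.96 CPM (a clone K library) and 828 CPM (a clone T library). The part of these markers in the results below was not tested.

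Of the 10 genes, 9 passed the filter on low counts and Tcf21 did not. Tcf21, which patterns visceral mesenchyme, had 0 counts in each of the 36 libraries, 654401004 counts in all, and the limit that a count of 0 allows (3 counts) is 0.136 CPM in the deepest library and 0.239 CPM in the shallowest. The other 9 were read in every library, with 74 counts of Prrx2 in a clone V library as the lowest value. Levels of different genes were compared as RPKM (reads scaled by gene length and library total), which the authors deposited. Over the 36 libraries Twist1 had the highest mean, 55.0 RPKM, followed by Snai2 (49.0), Prrx1 (45.1), Osr1 (39.8), Snai1 (36.8), Zeb2 (29.8), Twist2 (22.3), Prrx2 (18.9) and Zeb1 (9.58). In mono-culture the order began with Osr1 at 60.9 ± 7.07 RPKM (SD, n = 4), then Snai2 at 43.1 ± 2.44 and Twist1 at 35.3 ± 1.07. Osr1 thus led mono-culture and came after 3 other genes over all libraries. RPKM of the 9 genes spanned 2.55 to 81.1, and the widest span within a gene was that of Prrx2, from 2.55 to 49.5.

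**Figure D1:**
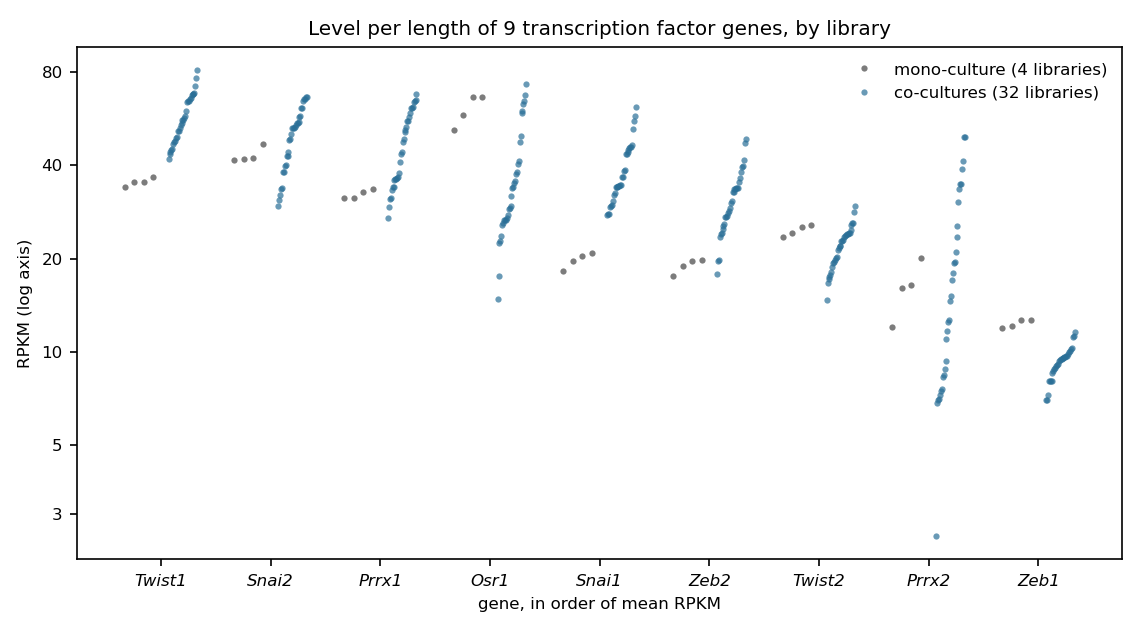
RPKM of the 9 detected genes in each library (log axis), with mono-culture in grey and the 32 co-culture libraries in blue, genes in order of mean RPKM. Twist1 and Snai1 lie above mono-culture in every co-culture library, Zeb1 lies below it, and Prrx2 has the widest span, 2.55 to 49.5 RPKM.

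Promoter windows came from RefSeq (GRCm38.p6, 250 bases before to 50 after the transcript start). They were examined for 7 of the 10 genes, and windows of Snai2, Zeb1 and Osr1 were not. Those of Twist1 and Snai1, which were called higher in every co-culture, and those of the paralogs Prrx1 and Prrx2, which parted in some, are shown 5′ to 3′ on the strand of the gene, with E-boxes (CANNTG, whose class reads the same on both strands) in capitals.
Twist1, chr12:33957421-33957720, plus strand: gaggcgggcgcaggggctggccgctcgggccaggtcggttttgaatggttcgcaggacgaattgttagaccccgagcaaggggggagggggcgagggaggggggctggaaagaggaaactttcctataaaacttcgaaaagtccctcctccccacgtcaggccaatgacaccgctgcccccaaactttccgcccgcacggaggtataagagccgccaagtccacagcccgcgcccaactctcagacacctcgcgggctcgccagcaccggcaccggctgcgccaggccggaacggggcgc
Snai1, chr2:167537945-167538244, plus strand: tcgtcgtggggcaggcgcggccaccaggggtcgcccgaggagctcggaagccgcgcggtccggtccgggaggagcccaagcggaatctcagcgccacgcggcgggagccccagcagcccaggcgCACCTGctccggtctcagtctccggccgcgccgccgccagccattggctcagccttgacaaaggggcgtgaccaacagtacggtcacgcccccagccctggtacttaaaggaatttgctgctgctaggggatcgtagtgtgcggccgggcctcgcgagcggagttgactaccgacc
Prrx1, chr1:163313601-163313900, minus strand: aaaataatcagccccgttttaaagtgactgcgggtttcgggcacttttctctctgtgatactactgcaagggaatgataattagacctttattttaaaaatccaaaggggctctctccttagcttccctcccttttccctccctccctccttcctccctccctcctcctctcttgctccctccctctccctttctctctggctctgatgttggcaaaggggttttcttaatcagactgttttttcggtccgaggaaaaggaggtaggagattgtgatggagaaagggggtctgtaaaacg
Prrx2, chr2:30845117-30845416, plus strand: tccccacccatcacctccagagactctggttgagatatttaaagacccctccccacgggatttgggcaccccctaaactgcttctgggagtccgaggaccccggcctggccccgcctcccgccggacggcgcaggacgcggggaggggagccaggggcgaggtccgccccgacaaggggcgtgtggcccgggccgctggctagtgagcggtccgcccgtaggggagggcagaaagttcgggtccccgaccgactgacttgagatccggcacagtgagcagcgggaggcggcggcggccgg
In these letters the Snai1 window held 1 E-box, CACCTG, at position -126 from the transcript start, and the Twist1, Prrx1 and Prrx2 windows held no CANNTG. The windows of Twist2, Zeb2 (4 starts) and Tcf21 held none either. Over all 32851 promoters of the same length 72.3% held CANNTG, and 20.2% held the narrower word CAGGTG or CACCTG, which is the same site read on either strand. Guanine and cytosine made up 66.0% of the Twist1 window, 70.0% of that of Snai1, 47.7% of that of Prrx1 and 70.3% of that of Prrx2, beside a median of 52.7% over all promoters. The Prrx2 window lies inside the gene as GENCODE vM21 draws it (chr2:30834972-30881251), since RefSeq places this start further downstream.

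The main question was whether fibroblasts co-cultured with a tumour line held these genes at other levels than fibroblasts alone. Each of the 9 genes was called in at least 2 of the 8 co-cultures, and Twist1, Snai1 and Zeb2 were called higher in each of them. A call is an adjusted p under 0.05 in edgeR's quasi-likelihood test, with Benjamini-Hochberg adjustment over the 14439 genes tested. The 8 comparisons share the 4 mono-culture libraries, so they are not independent of each other. Library titles also carry a serial number, which runs through the co-cultures replicate by replicate and ends with all mono-culture libraries. The titles do not say what this number stands for. A difference tied to it cannot be told apart from one between co-culture and mono-culture. In a bulk library a change in the RNA per cell and a change in the mix of cells cannot be told apart.

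With clone K, 6 of the 9 genes were called higher, beside 10.4% of all genes, and 0 lower, beside 8.69%; at an unadjusted p under 0.05 edgeR gave 0 lower as well, and so did DESeq2 and limma after adjustment. With clone M 6 were higher (12.2% of all genes) and 1 lower (10.8%). Clone E gave 4 higher (16.5%) and 2 lower (15.5%), and clone N 4 higher (19.7%) and 1 lower (19.2%). Clone T gave 6 called (49.8% of all genes), 4 of them higher and 2 lower (24.7%), and clone H 4 higher (27.8%) and 3 lower (26.4%). Clone V gave 3 higher (29.4%) and 4 lower (28.9%), and KPC1 also 3 higher (30.5%) and 4 lower (28.5%). Clones K and M, whose co-cultures had the smallest shares of all genes called, thus had the largest numbers of these genes called higher. The median log2 fold change of the 9 genes was 0.78 with clone K and 0.80 with clone M, and it lay between -0.07 (KPC1) and 0.48 (clone N) with the other lines, against -0.01 to 0.01 for all genes tested. For the mean of the 7 clones 5 genes were higher (24.3% of all genes) and 2 lower (24.9%), with a median of 0.29 against 0.01 for all genes.

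With only the 3 libraries of each co-culture that were lowest in epithelial markers, an alternative chosen after seeing the data, 5 to 7 genes were called in each co-culture, against 5 to 7 with all libraries. The calls lost there were Zeb2 and Prrx1 with clone H, Prrx1 with clone T and Twist2 with clone V (adjusted p 0.065 to 0.077). Within lines, the log2 CPM of the 9 genes and the summed epithelial markers had correlations from -0.36 (Zeb2) to 0.28 (Prrx2) over the 32 co-culture libraries, given as a description.

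**Figure D2:**
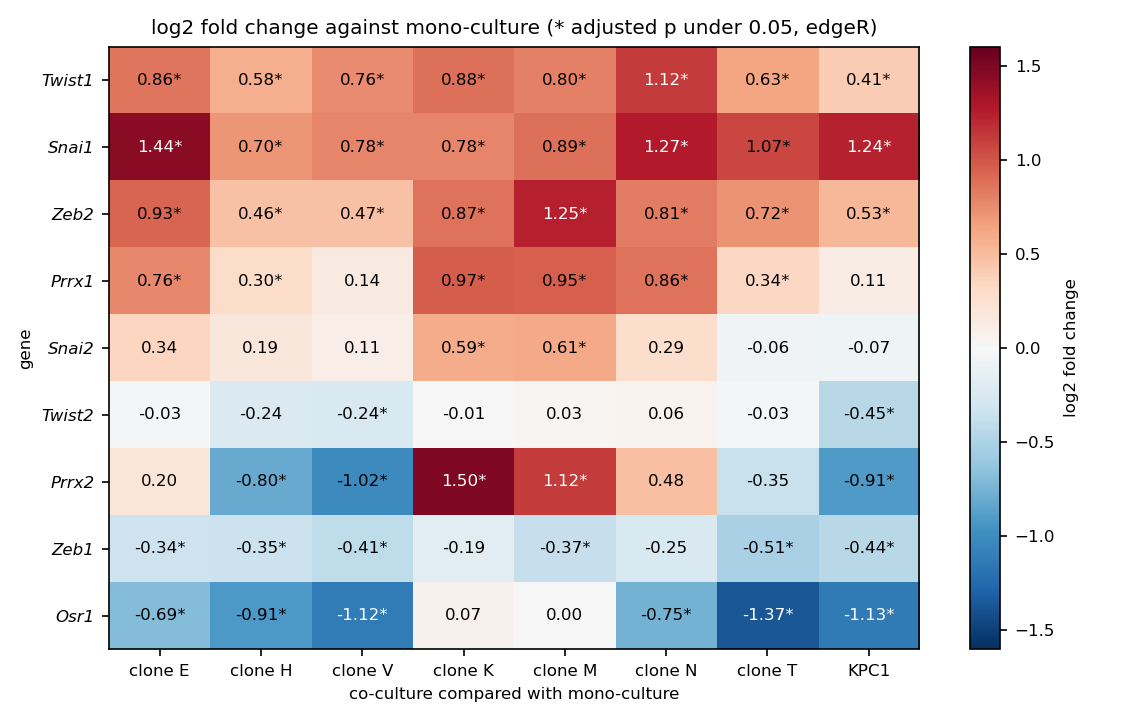
Log2 fold change of the 9 genes (rows) in each of the 8 co-cultures against mono-culture (columns), with red for higher, blue for lower and an asterisk for an adjusted p under 0.05 (edgeR). Twist1, Snai1 and Zeb2 carry an asterisk in each column, and Prrx2 ranges from -1.02 with clone V to 1.50 with clone K.

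Twist1 (chr12:33957671-33959829 in GRCm38, plus strand) read 56.3, 56.99, 52.9 and 54.3 CPM in mono-culture. In co-culture it read 128, 127, 112 and 111 CPM with clone N, the group with the highest mean, and 75.97, 74.4, 73.4 and 68.6 CPM with KPC1, the group with the lowest. All 32 co-culture libraries lay above the highest mono-culture library. The values were 118, 108, 93.4 and 79.3 CPM with clone E, 92.8, 83.1, 80.7 and 73.3 with clone H and 72.8, 115, 79.2 and 106 with clone V. They were 109.8, 109, 101 and 86.1 CPM with clone K, 89.2, 105, 90.7 and 99.6 with clone M and 84.8, 83.2, 89.9 and 82.8 with clone T. Clone V split into 2 lower and 2 higher libraries, and clone T was the tightest of the clones. The log2 fold change was 1.12 (SE 0.117, adjusted p = 9.1e-09) with clone N, 0.41 (SE 0.116, adjusted p = 0.0032) with KPC1 and 0.80 (SE 0.0934, adjusted p = 2.8e-08) for the mean of the 7 clones, a fold of 1.74.

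Snai1 (chr2:167538195-167542814, plus strand), whose single E-box is shown above, read 29.9, 32.7, 28.3 and 31.995 CPM in mono-culture. Clone E gave the highest level, 94.3, 103, 70.2 and 66.2 CPM, and clone H the lowest of the co-cultures, 50.1, 57.1, 46.96 and 46.2 CPM. No co-culture library overlapped mono-culture. The KPC1 libraries were the most scattered, at 88.7, 45.8, 92.5 and 62.5 CPM, and those of clone N, at 70.4, 75.6, 76.1 and 75.2 CPM, were among the tightest. The remaining groups gave means of 64.7 ± 10.98 (clone T), 56.8 ± 2.43 (clone M), 52.8 ± 6.79 (clone V) and 52.7 ± 5.18 CPM (clone K; SD, n = 4 each). Snai1 had the largest rise of the 9 genes in the mean of the 7 clones, 0.99 (SE 0.128, adjusted p = 1.7e-07) on the log2 scale, which is 1.99-fold. With clone E the log2 fold change was 1.44 (SE 0.158, adjusted p = 4.6e-08) and with KPC1 1.24 (SE 0.157, adjusted p = 8.8e-08).

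Zeb2 (chr2:44983632-45117395, minus strand), the more abundant of the Zeb repressors, read 163, 158, 172 and 170.1 CPM in fibroblasts alone and 423, 443, 371 and 339 CPM when clone M was present. Of the 32 co-culture libraries 31 lay above mono-culture, and the exception was replicate 4 of clone H, where the 4 libraries read 276, 223, 259 and 156 CPM. Replicate 4 was the lowest library of 7 of the 8 co-cultures for Zeb2. The log2 fold change was 1.25 (SE 0.159, adjusted p = 6.4e-07) with clone M, 0.93 (SE 0.158, adjusted p = 3.9e-05) with clone E and 0.79 (SE 0.127, adjusted p = 6.2e-06) for the mean of the 7 clones. With clone H it was 0.46 (SE 0.157, adjusted p = 0.014), and this call was lost without clone H replicate 1 (0.36, adjusted p = 0.07) or replicate 3 (0.40, adjusted p = 0.055). Exons of Zeb2 share 653 bases with the antisense gene Zeb2os, which had 19 to 95 counts per library against 2268 to 7787 of Zeb2, and whether counting used strand is not stated.

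**Figure D3:**
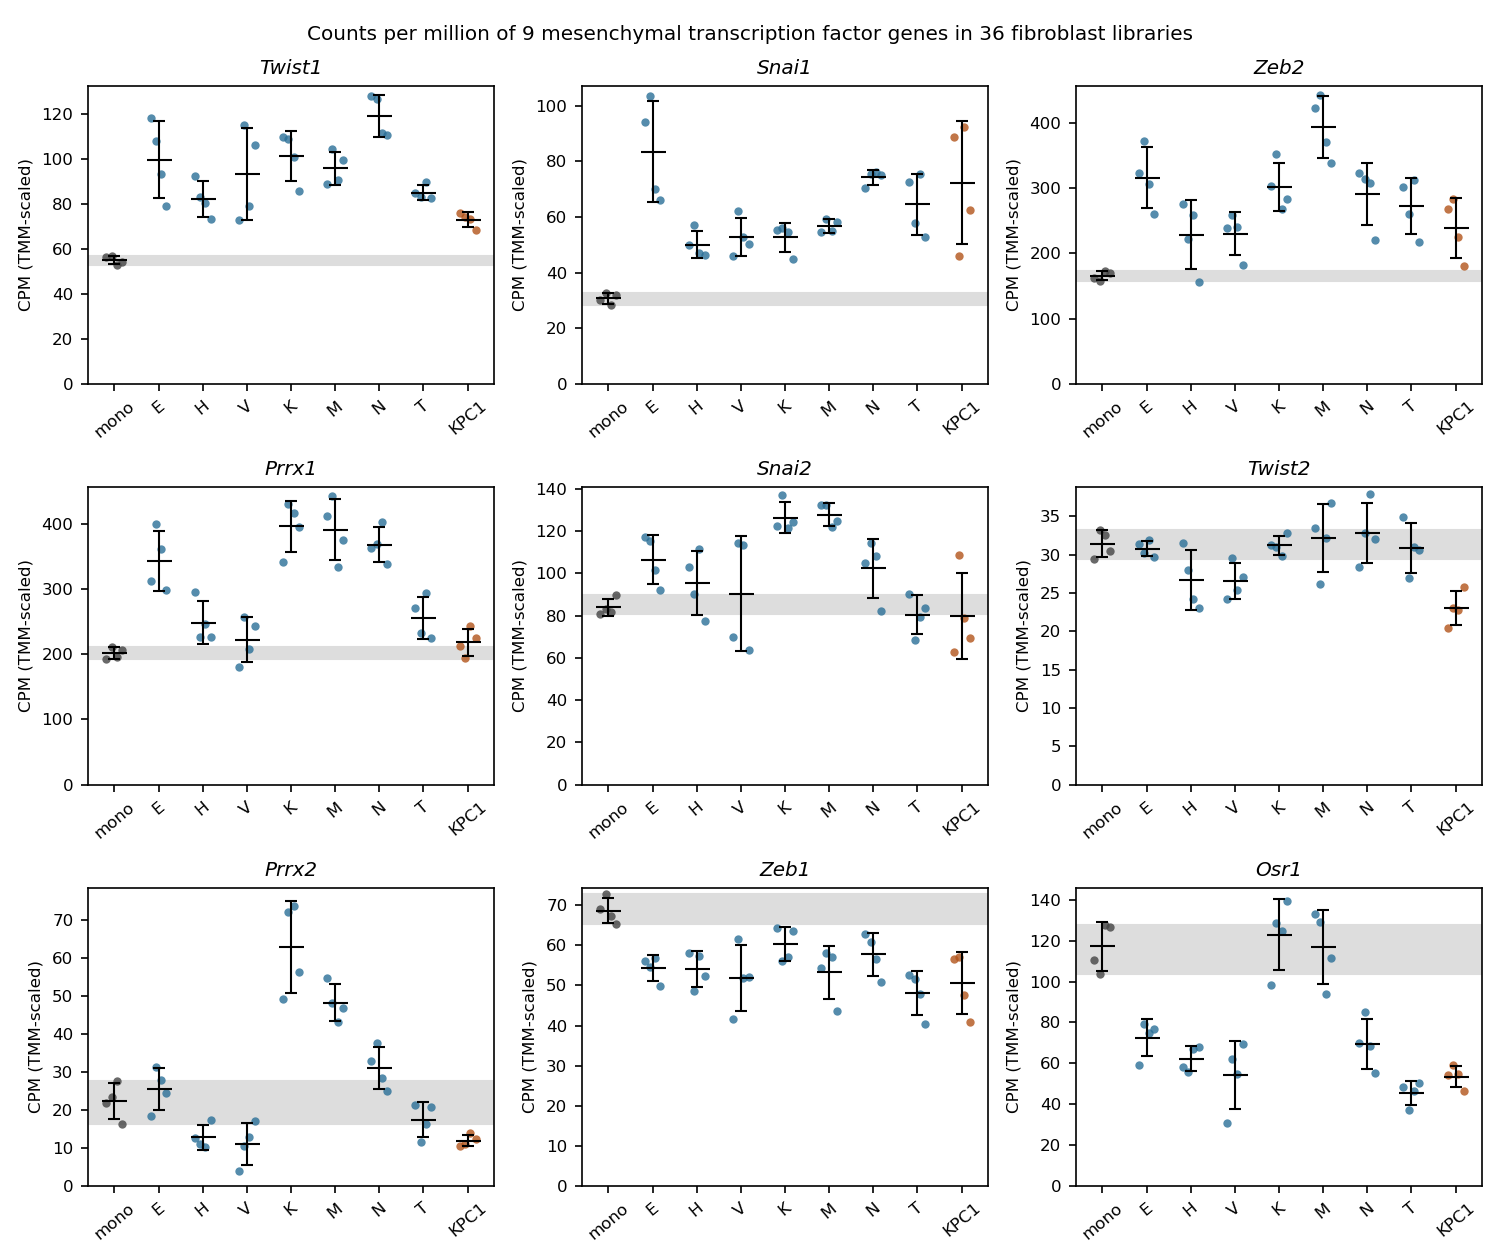
TMM-scaled CPM of the 9 genes (one panel each, linear axes from 0) by group: points are libraries, bars the mean ± SD of 4 libraries, and the grey band the mono-culture range. In the Twist1 and Snai1 panels every co-culture point lies above the band, in the Zeb1 panel every one lies below it, and in the Prrx2 panel clones K and M lie above it and KPC1 below.

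Prrx1 (chr1:163245119-163313710, minus strand), a homeodomain factor of fibroblasts and limb mesenchyme, was graded across the lines. Fibroblasts alone read 193, 212, 196 and 207 CPM, those with clone K read 342, 431, 416 and 395 CPM and those with clone M read 411, 443, 334 and 375 CPM. The libraries of clone E (313, 399, 361 and 299 CPM) and clone N (362, 368, 402 and 338 CPM) were also all above mono-culture. Those of clones H (296, 226, 246 and 226 CPM) and T (271, 232, 294 and 224 CPM) lay closer to it. With clone V (181, 257, 208 and 243 CPM) and KPC1 (213, 194, 243 and 225 CPM) the ranges overlapped that of mono-culture. The log2 fold change was 0.97 (SE 0.117, adjusted p = 3.9e-07) with clone K, 0.86 (SE 0.116, adjusted p = 6.6e-07) with clone N, 0.14 (SE 0.116, adjusted p = 0.32) with clone V and 0.11 (SE 0.116, adjusted p = 0.41) with KPC1. The call with clone H, 0.30 (SE 0.116, adjusted p = 0.029), was lost without clone H replicate 1 (0.20, adjusted p = 0.16) or mono-culture replicate 1 (0.27, adjusted p = 0.078), and fell to 0.20 (adjusted p = 0.12) on log2(RPKM + 1). The call with clone T, 0.34 (SE 0.116, adjusted p = 0.016), was lost without clone T replicate 3 (0.27, adjusted p = 0.076).

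Snai2 (chr16:14705852-14709385, plus strand), the paralog of Snai1, moved less. Fibroblasts alone read 80.6, 83.3, 81.8 and 89.8 CPM, those with clone K read 122, 137, 121 and 124 CPM and those with clone M read 132, 132, 122 and 125 CPM. These were the 2 lines with a call, at 0.59 (SE 0.157, adjusted p = 0.007) and 0.61 (SE 0.157, adjusted p = 0.0047) on the log2 scale, and all 8 of their libraries lay above mono-culture. With clone V the libraries split, at 69.8, 114, 113 and 63.8 CPM, with 2 below and 2 above the mono-culture range, and KPC1 replicate 2 stood at 109 CPM among libraries of 62.7, 109, 78.8 and 69.2 CPM. With clone E all 4 libraries lay above mono-culture too, but the difference of 0.34 (SE 0.157, adjusted p = 0.092) on the log2 scale did not pass. The call for the mean of the 7 clones, 0.29 (SE 0.121, adjusted p = 0.044), sat close to the threshold and was lost without any of 11 single libraries (adjusted p 0.05 to 0.13), among them each mono-culture library. It was also lost with no scaling beyond library size (adjusted p = 0.11), with no filter on low counts (0.051), with the filter of 10 counts (0.055) and on both RPKM scales (0.12).

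Prrx2 (chr2:30834972-30881251, plus strand), the paralog of Prrx1, was the most variable of the genes and the only one of the 9 called both higher and lower. Fibroblasts alone read 21.8, 23.4, 27.7 and 16.4 CPM, those with clone K read 49.2, 72.3, 73.7 and 56.2 CPM and those with clone M read 54.8, 48.3, 43.04 and 46.9 CPM. Every library of clones K and M was above the mono-culture range. Clone H gave 12.5, 10.9, 10.3 and 17.3 CPM, clone V 3.76, 10.5, 12.9 and 16.99 CPM and KPC1 10.5, 10.9, 13.8 and 12.2 CPM. All 4 KPC1 libraries and 3 of 4 with clones H and V were below the range. The libraries of clone E (18.4, 31.4, 27.8 and 24.4 CPM), clone N (32.99, 37.5, 28.4 and 24.8 CPM) and clone T (21.2, 11.4, 16.2 and 20.9 CPM) overlapped it. Prrx2 rose by 1.50 (SE 0.259, adjusted p = 9.1e-05) on the log2 scale with clone K, 2.82-fold, and by 1.12 (SE 0.258, adjusted p = 0.0018) with clone M. Its log2 fold change was -0.80 (SE 0.263, adjusted p = 0.011) with clone H, -1.02 (SE 0.266, adjusted p = 0.0016) with clone V and -0.91 (SE 0.266, adjusted p = 0.0042) with KPC1. For the mean of the 7 clones, which pools these opposite changes, it was 0.16 (SE 0.198, adjusted p = 0.54).

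Osr1 (chr12:9570116-9581500, plus strand), the mesoderm zinc-finger gene, had the deepest falls. Fibroblasts alone read 110.5, 104, 128 and 127 CPM, those with clone T read 48.1, 36.98, 46.3 and 50.3 CPM and those with KPC1 read 54.04, 59.03, 54.6 and 46.2 CPM. Clone V gave 30.7, 61.9, 54.5 and 69.4 CPM, clone H 58.1, 55.6, 66.99 and 67.8 CPM, clone N 69.7, 84.9, 68.5 and 55.01 CPM and clone E 59.04, 79.2, 74.8 and 76.8 CPM. Every one of these 24 libraries was below the lowest mono-culture library. With clone K it read 98.5, 129, 125 and 139.6 CPM and with clone M 133, 129, 93.7 and 111 CPM, and both ranges enclosed that of mono-culture. Osr1 was 2.58-fold lower with clone T, at -1.37 (SE 0.168, adjusted p = 1.1e-07) on the log2 scale, and stood at -0.69 (SE 0.165, adjusted p = 0.0016) in the mildest of the 6 calls, with clone E. With clone K the log2 fold change was 0.07 (SE 0.164, adjusted p = 0.82) and with clone M 0.00 (SE 0.164, adjusted p = 0.99).

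Prrx2 and Osr1 followed each other from library to library. Their log2 CPM correlated at r = 0.80 over the 36 libraries, at 0.80 over the 9 group means and at 0.78 after each group's mean was subtracted. The same clone V library, replicate 1, was the lowest of the 36 for both, at 3.76 CPM of Prrx2 and 30.7 CPM of Osr1. The mono-culture libraries stood apart from this line, with Osr1 at the level of clones K and M and Prrx2 at about that of clones E and T. These libraries share depth scaling and culture, so the correlations are descriptions.

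**Figure D4:**
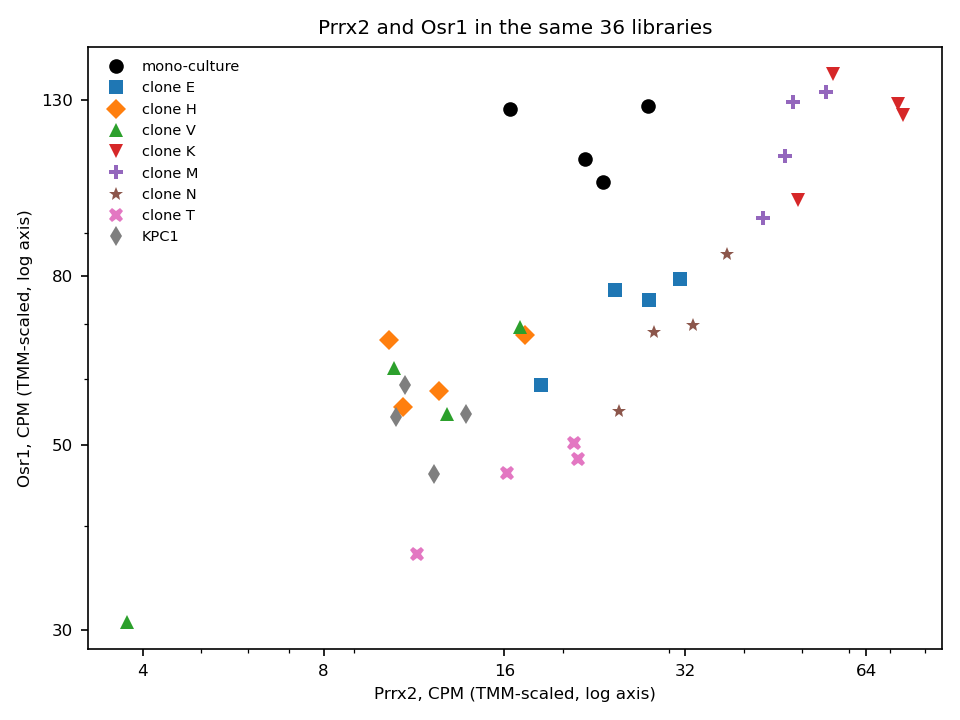
Prrx2 against Osr1 in the same 36 libraries (TMM-scaled CPM, log axes, 1 symbol per group). The co-culture libraries run from clone V replicate 1 at the lower left (3.76 and 30.7 CPM) to clones K and M at the upper right, and the 4 mono-culture libraries lie above them at their Prrx2 level.

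Zeb1 (chr18:5591860-5775467, plus strand), the other Zeb repressor, went the opposite way to Zeb2. Fibroblasts alone read 69.2, 72.7, 67.3 and 65.5 CPM, those with clone T read 52.6, 51.6, 47.9 and 40.4 CPM and those with clone K read 64.3, 56.2, 57.1 and 63.6 CPM. All 32 co-culture libraries lay below the lowest mono-culture library, clone K being the nearest. The log2 fold change was -0.51 (SE 0.111, adjusted p = 0.0003) with clone T, -0.44 (SE 0.111, adjusted p = 0.001) with KPC1 and -0.34 (SE 0.0813, adjusted p = 0.00076) for the mean of the 7 clones. It was called lower with 6 of the 8 lines and was -0.19 (SE 0.11, adjusted p = 0.26) with clone K and -0.25 (SE 0.111, adjusted p = 0.075) with clone N. The call with clone E was lost without clone E replicate 4 (-0.31, adjusted p = 0.056) or mono-culture replicate 2 (-0.30, adjusted p = 0.061), and that with clone M without clone M replicate 4 (-0.29, adjusted p = 0.073) or mono-culture replicate 2 (-0.34, adjusted p = 0.051). Without clone N replicate 1 the value with clone N passed (-0.31, adjusted p = 0.041).

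Twist2 (chr1:91801461-91848028, plus strand), the Twist paralog, read 29.4, 33.2, 32.5 and 30.5 CPM in fibroblasts alone and 20.4, 23.1, 22.7 and 25.8 CPM with KPC1. All 4 KPC1 libraries were below mono-culture, at -0.45 (SE 0.105, adjusted p = 0.00049) on the log2 scale. With clone V it read 24.2, 29.6, 25.4 and 27.04 CPM, and its call, -0.24 (SE 0.104, adjusted p = 0.047), was lost without any of 6 single libraries, namely clone V replicate 1, 3 or 4 and mono-culture replicate 2, 3 or 4 (-0.25 to -0.19, adjusted p 0.061 to 0.14). With clone H it was -0.24 (SE 0.104, adjusted p = 0.055) and passed without clone H replicate 1 (-0.33, adjusted p = 0.011) or mono-culture replicate 1 (-0.27, adjusted p = 0.043). It also passed by DESeq2 (adjusted p = 0.041), with RLE scaling (0.048), with no scaling (0.012), with the filter of 10 counts (0.026) and on both RPKM scales (0.0089 and 0.0088). In the other 5 co-cultures it lay between -0.03 and 0.06. Exons of Twist2 share 1477 bases with an antisense gene in GENCODE, so its reads are uncertain in this respect.

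The 4 paralog pairs can be set side by side in the mean of the 7 clones: Twist1 at 0.80 and Twist2 at -0.06, Snai1 at 0.99 and Snai2 at 0.29, Zeb2 at 0.79 and Zeb1 at -0.34, and Prrx1 at 0.62 and Prrx2 at 0.16 on the log2 scale, with SEs of 0.078 to 0.198. The order of Prrx1 and Prrx2 varied by clone. Prrx2 stood above Prrx1 with clone K (1.50 against 0.97) and clone M (1.12 against 0.95), and below it with each of the other clones. The difference within a pair was not tested. No run of 76 bases, the read length, was shared between transcripts of different members.

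A second question was whether the 7 sub-clones differed from each other. An F-test on 6 contrasts called 8 of the 9 genes, beside 67.5% of all genes, with adjusted p from 1.9e-09 for Prrx2, 9.6e-09 for Osr1 and 7e-08 for Prrx1 to 0.041 for Twist2. The Twist2 call was lost without any of 13 single libraries (adjusted p 0.051 to 0.12), by DESeq2 (0.052) and with the 3 libraries per co-culture lowest in epithelial markers (0.28). Zeb1 did not pass, at 0.16. Clone N led for Twist1, clone E for Snai1, clone M for Snai2 and Zeb2, and clone K for Prrx1, Prrx2 and Osr1. The library ranges of clones K and M overlapped for each of the 9 genes, and the share of all genes with such an overlap was not determined.

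In the order of the 9 groups, neighbours mostly overlapped in their libraries. For Twist1 the clone N libraries (111 to 128 CPM) lay above those of the next group by mean, clone K (up to 109.8 CPM). Clones E and V, further down that order, reached 118 and 115 CPM and so overlapped clone N. KPC1 lay above mono-culture for Twist1. For Prrx1 there was a gap between clone E and clone T, with clones K, M, N and E above it and clones T, H, V, KPC1 and mono-culture below. For Prrx2 the gap fell between clone M and clone N, for Snai2 between clone K and clone E, and for Osr1 between clone M and clone E, with mono-culture among the higher groups. For Twist2 every neighbouring pair of groups overlapped.

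KPC1 was also compared with the mean of the 7 clones. With KPC1 6 of the 9 genes were lower, beside 18.8% of all genes, and 0 were higher, beside 22.3%; at an unadjusted p under 0.05 edgeR gave 1 higher (Snai1), and DESeq2 and limma gave 0 after adjustment. The log2 difference, KPC1 minus the clones, was -1.07 (SE 0.217, adjusted p = 0.00027) for Prrx2, -0.50 (SE 0.0912, adjusted p = 7e-05) for Prrx1 and -0.45 (SE 0.13, adjusted p = 0.0064) for Osr1. It was -0.40 (SE 0.09, adjusted p = 0.00081) for Twist1, -0.38 (SE 0.0819, adjusted p = 0.00041) for Twist2 and -0.37 (SE 0.122, adjusted p = 0.017) for Snai2, the last lost without KPC1 replicate 1 (-0.27, adjusted p = 0.12) or replicate 4 (-0.30, adjusted p = 0.077). Snai1 stood at 0.24 (SE 0.114, adjusted p = 0.083) and passed as higher without KPC1 replicate 2 (0.42, adjusted p = 0.004) or replicate 4 (0.32, adjusted p = 0.049). Zeb2 stood at -0.26 (SE 0.121, adjusted p = 0.087) and passed as lower without clone H replicate 4 (-0.28, adjusted p = 0.046), with the replicate block (-0.26, adjusted p = 0.01), with no scaling (-0.28, adjusted p = 0.041) and on both RPKM scales (adjusted p = 0.035 and 0.034). The value of Zeb1 was -0.10 (SE 0.0847, adjusted p = 0.37).

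The genes whose log2 CPM was most like that of each member over the 36 libraries were sought among 11694 genes with a mean of at least 2 CPM. For Prrx2 they were Smad6 (r = 0.95), Ndrg3 (0.94) and Hoxb3 (0.94), and for Prrx1 Apcdd1 (0.94), Kank1 (0.93) and Svil (0.92). For Zeb2 they were Arhgap42 (0.91), D8Ertd82e (0.90) and Gucy1a2 (0.89). For Twist1 they were Axin2 (0.91), Inhbb (0.90) and Tnfsf15 (0.89), for Osr1 Amot (0.91), Cbx6 (0.90) and Med16 (0.90), and for Snai1 Slco2a1 (0.88), Heyl (0.86) and Zfp36l2 (0.85). Snai2 was most like 9430020K01Rik (0.83), Cachd1 (0.81) and Dclk2 (0.79), Twist2 most like Skiv2l (0.79), Traf5 (0.78) and Dnajc14 (0.77), and Zeb1 most like Mcc (0.76), Ptprd (0.74) and Pigu (0.73). Prrx2 and Smad6 stayed at 0.91 after group means were subtracted, and Zeb1 and Pigu at 0.80. The closest pairs among the members themselves, after Prrx2 and Osr1, were Prrx1 and Prrx2 (0.80), Zeb2 and Prrx1 (0.76) and Twist1 and Prrx1 (0.75), which fell to 0.47, 0.37 and 0.50 within groups.

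The partners of the helix-loop-helix members were given by a list of 7 genes, the E proteins Tcf3, Tcf4 and Tcf12 and the inhibitors Id1 to Id4. In the mean of the 7 clones 5 of the 7 were higher, 3 with no scaling beyond library size (24.3% of all genes were higher), with a list median of 0.24 on the log2 scale, against 0.01 for all genes. Id4 rose from 1.32 to 13.1 CPM (log2 2.49, SE 0.377, adjusted p = 3e-06), Id1 from 8.62 to 23.5 CPM (1.23, SE 0.301, adjusted p = 0.0011) and Id3 from 44.5 to 113 CPM (0.93, SE 0.328, adjusted p = 0.02). These values pool unlike clones: clone means ran from 0.857 to 30.8 CPM for Id4, 6.52 to 43.2 for Id1 and 16.9 to 208 for Id3. The lowest clone mean of each of these genes was below mono-culture. CPM values here are arithmetic means, while the log2 values average the clones on the log scale. Tcf12 rose from 187 to 222 CPM (0.24, SE 0.0915, adjusted p = 0.028). With clones K and M 6 of the 7 were called higher in each (10.4% and 12.2% of all genes), with list medians of 1.75 and 1.25, and with clone V and KPC1 2 were called lower in each (28.9% and 28.5% of all genes).

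Of 48 other transcription factors known from mesenchyme 39 were tested, of which 11 were higher and 10 lower in the mean of the 7 clones, with a median of -0.07. Over all genes 24.3% were higher and 24.9% lower, so these counts were near the background. Gli1, a readout of hedgehog signalling, rose by 2.42 on the log2 scale (SE 0.308, adjusted p = 1.6e-07), Fosl1, an AP-1 subunit, by 2.00 (SE 0.243, adjusted p = 8.3e-08) and the forkhead gene Foxc2 by 1.95 (SE 0.183, adjusted p = 4.1e-10). Osr2, the paralog of Osr1, went from 32.7 to 13.8 CPM (-1.66, SE 0.228, adjusted p = 6.7e-07). Clone K had 14 of these genes higher and 2 lower, where 10.4% and 8.69% of all genes were, and clone V 10 higher and 16 lower, where 29.4% and 28.9% of all genes were.

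Of 25 genes that are used to mark the mesenchymal state, 13 were higher and 4 lower in the mean of the 7 clones, beside 24.3% and 24.9% of all genes, with a median of 0.43. The mesenchymal cadherin gene Cdh11 rose from 56.0 to 379 CPM (2.76, SE 0.231, adjusted p = 7.6e-11), the matrix phosphoprotein gene Spp1 by 2.42 (SE 0.332, adjusted p = 7e-07), the tenascin gene Tnc by 1.75 (SE 0.274, adjusted p = 5e-06) and the actin-binding gene Tagln by 1.67 (SE 0.388, adjusted p = 0.00071). Of 17 tested TGF-beta response genes 12 were higher and 2 lower, with a median of 0.90, among them Tgfb2 (2.32, SE 0.187, adjusted p = 2.7e-11) and Pmepa1 (1.33, SE 0.183, adjusted p = 6.2e-07) as higher and Tgfbi (-2.16, SE 0.19, adjusted p = 1.8e-10) as lower.

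Transcription factors and splicing regulators of the epithelial state formed a list of 23 genes. Of these 13 were tested, and 6 were higher and 1 lower in the mean of the 7 clones (2 lower with no filter on low counts), beside 24.3% and 24.9% of all genes. Of the 13, 7 had at most 3 counts in each mono-culture library. With those 7 set at the bound of 3 counts the list median was 1.52 on the log2 scale. Pdx1 and Cdx2, transcription factors of pancreatic or gut epithelium, had 0 counts in mono-culture and means of 5.37 and 5.12 CPM over the 7 clones, and Foxa2 had at most 1 count there and 7.14 CPM. Others were present in fibroblasts alone, with mono-culture means of 9.71 CPM for Klf5, 1.89 CPM for Trp63 and 1.11 CPM for Esrp2, named after their values were seen. The epithelial markers behaved likewise: of 22 listed 12 were tested, with 8 higher and 1 lower (5 lower with no filter on low counts), beside 24.3% and 24.9% of all genes. Krt8, Krt18 and Krt19 had means of 88.9, 150 and 41.4 CPM over the 7 clones against 0.0229, 0.161 and 0.199 CPM in mono-culture. Cdh3, the 1 called lower, went from 4.40 to 2.02 CPM, and Krt7 was not called (adjusted p = 0.5, edgeR). The E-cadherin gene Cdh1 went from 0.258 CPM in mono-culture to clone means between 0.0304 and 26.4 CPM. Cdh3, Krt7 and Cdh1 were named after their values were seen. The 9 detected members were at 3.76 CPM or more in every library, mono-culture included.

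The remaining cell type lists were set beside these results, to be read against the same 24.3% higher and 24.9% lower of all genes. Fibroblast markers gave 8 higher and 6 lower of 24 (median -0.03), near that background, with Fap at 5.13 (SE 0.263, adjusted p = 6.5e-15) and Dpt at -3.62 (SE 0.195, adjusted p = 2.4e-14). Stellate and mural markers gave 6 higher and 1 lower of 11 tested (median 1.07), with Mcam, Notch3 and Acta2 at 2.26, 1.53 and 1.38. Leukocyte markers gave 1 higher and 1 lower of 4 tested, endothelial markers 1 and 1 of 5, and mesothelial markers 2 higher of 3. The summed mesothelial markers, which include Krt19, were 9.73 to 15.8 CPM in mono-culture and 4.23 to 202 CPM in co-culture.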

How the data were processed

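RNA from the fibroblasts was poly(A)-selected, made into strand-specific libraries and read as paired ends of 76 bp. The authors deposited whole-number read counts for 39017 genes, with no scaling, and RPKM values, scaled by the length of the gene and the total of the library, for 37746 genes. The submitters' processing notes name STAR, featureCounts, edgeR and the build mm10 (GRCm38); versions, annotation and the use of strand in counting are not given in the sources used here.

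Groups came from the labels, 4 libraries each. Counts were analysed with edgeR 4.0.16 (R 4.3.3): filterByExpr left 14439 genes, libraries were scaled by TMM, and all 36 libraries entered a robust quasi-likelihood fit that gave each group its own coefficient. P-values were adjusted by Benjamini-Hochberg over all genes tested, with 0.05 as the threshold. SEs were derived from the fold change and its F-statistic. CPM values carry the TMM scaling, with a prior count of 1 before logs. No library pair of a group differed as little as sampling noise (smallest chi-square per degree of freedom 5.84). The procedure was also run on simulated counts with changes planted in the clone E libraries only, and the outcome is not given here. Library totals of 12532122 to 21985538 counts keep counting error small for 9 of the 10 genes, and floors of 3 counts cover counting error only.

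The 10 genes and the 11 gene lists were chosen with earlier results of these data known. Named genes were the members; up to 4 called genes per list with the largest change in the mean of the 7 clones and a mean of at least 2 CPM; and the 3 genes most correlated with each member. Lists are described by counts and medians, with no test. Gene positions came from GENCODE vM21 (GRCm38) and promoters from RefSeq (GRCm38.p6).

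As alternatives, the calls were repeated with DESeq2 1.42.0 and with limma-trend 3.58.1 on log2(RPKM + 1) or log2(RPKM + 0.1). Scaling was changed to RLE or left out, the filter was dropped or raised to 10 counts in each library, and the threshold was set to 0.1. Fits with a replicate block, on the compared groups alone, without each library in turn, and on the 3 libraries per co-culture lowest in epithelial markers were also made.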

Additional observations from a re-analysis of the deposited data

Results flagged for a closer look

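The 4 libraries of each group were examined for a lone value in the 9 detected genes, 81 sets in all, of which chance alone would mark about 1 in 20. In 3 sets the gap between the lowest library and the nearest other, as a share of the whole range, was above Dixon's critical value. Snai1 with clone K had replicate 4 at 45.04 CPM and the others at 54.5 to 56.2 CPM, a share of 0.852. Snai1 with clone N had replicate 1 at 70.4 CPM and the others at 75.2 to 76.1 CPM, a share of 0.845. Zeb2 with clone N had replicate 4 at 221 CPM and the others at 308 to 323 CPM, a share of 0.849.

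The change against mono-culture differed between the 7 clones for 8 of the 9 genes by edgeR's F-test, beside 67.5% of all genes. The adjusted p was 1.9e-09 for Prrx2, 9.6e-09 for Osr1, 7e-08 for Prrx1, 0.00025 for Snai1, 0.00055 for Zeb2, 0.0024 for Snai2, 0.0026 for Twist1 and 0.041 for Twist2. Group means ran from 11.03 (clone V) to 62.9 CPM (clone K) for Prrx2, from 45.4 (clone T) to 123 CPM (clone K) for Osr1, and from 222 (clone V) to 396 CPM (clone K) for Prrx1.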

How the results depend on the processing

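The number of the 9 detected members called in each comparison stayed within 1.5 times its value under each alternative, with 1 exception. With clone N a fit of only the groups compared called 8 genes against 5, the cause of which was not tested. The share of all genes called by that fit is not shown here, so the 8 has no background beside it. Leaving out 1 library at a time gave 5 to 7 genes called in each co-culture and 7 or 8 among the clones. Among the gene lists, 3 of 7 partners were called higher without scaling against 5, and without the filter 5 epithelial markers and 2 epithelial regulators were called lower, each against 1. For single genes, no called direction was reversed. Calls near the threshold were lost or gained by processing alone. Besides the values given with Snai2, Twist2 and Zeb2, the Prrx1 call with clone H was lost without scaling (adjusted p = 0.1), with the filter of 10 counts (0.056) and on log2(RPKM + 0.1) (0.11). The Zeb2 call with clone H was lost on log2(RPKM + 1) (0.052). The Twist2 call with clone V was lost with RLE scaling (0.052), with no filter (0.12) and with the replicate block (0.052), and that among the clones with no filter (0.13), with the replicate block (0.05) and with only the groups compared (0.071). Zeb1 with clone N passed without scaling (0.02), with the replicate block (0.038), on the RPKM scales (0.019 and 0.021) and with only the groups compared (0.034), a fit that also called Snai2 (0.028) and Prrx2 (0.034) with clone N and Snai2 with clone E (0.004). With the 3 libraries per co-culture lowest in epithelial markers, the calls of Zeb2 (0.069) and Prrx1 (0.069) with clone H, Twist2 with clone V (0.077), Prrx1 with clone T (0.065) and Snai2 for KPC1 against the clones (0.12) were lost. The values that changed sign were all uncalled, with adjusted p of 0.58 or more. For Twist2 with clone N the log2 fold change became -0.0028 without scaling and -0.0072 and -0.0077 on log2(RPKM + 1) and log2(RPKM + 0.1). Snai2 with clone V became -0.0372 and -0.0390 on these RPKM scales. Osr1 with clone M became 0.0147 with only the groups compared. With the 3 libraries per co-culture lowest in epithelial markers, Osr1 became -0.0007 with clone K and 0.0793 with clone M, and Snai2 0.0168 with KPC1. Leaving out single libraries moved Twist2 over -0.0725 to 0.0068 with clone E, -0.0456 to 0.0205 with clone K, -0.0461 to 0.1227 with clone M, -0.0114 to 0.1033 with clone N and -0.0884 to 0.038 with clone T. Osr1 moved over -0.0004 to 0.1618 with clone K and -0.0705 to 0.09 with clone M, and Snai2 over -0.1223 to 0.0131 with clone T, -0.0256 to 0.2454 with clone V and -0.2533 to 0.0177 with KPC1.

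The labels number the replicates 1 to 4 in every group. Same-numbered libraries of 2 co-cultures had a mean correlation of deviations of 0.143 (lowest -0.519, and all over 0.1 in 3 of 28 group pairs). By pair of co-cultures this mean ran from -0.257 (clone N with KPC1) to 0.402 (clone T with KPC1). For a co-culture and mono-culture it was -0.021 (0 of 8 pairs). Replicate 4 was the lowest library of 7 of the 8 co-cultures for Zeb2, 6 for Twist1, 5 for Zeb1 and at most 4 for the other genes. The main fit did not take the numbers as pairs, and an effect of replicate number shared by co-cultures was not tested. With the replicate block 7 genes were called among the clones against 8, 6 with clone N against 5, 6 with clone V against 7 and 7 for KPC1 against the clones, where the fit without it gave 6 (Zeb2 was gained). Osr1 with clone M became 0.0020 and stayed uncalled. The shares of all genes called under the block are not shown here. Depth limits no gene but Tcf21, for which 0 counts allow up to 0.136 to 0.239 CPM.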
